A study of Mus musculus with 6 samples.

Results

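The genes described here lie side by side on mouse chromosome 9, between 105 and 110 Mb. Each has its smallest exon start in that interval on the build GRCm38 (mm10), and at least 10 counts summed over the 6 library columns. Alas1 and genes of cytosolic ribosomal proteins were left out. This gave 121 members of the 46983 rows of the count table; 111 other rows of the interval fell under the count minimum and 2 were left out by name. The interval was chosen by measured values: in the comparison of knockout with control livers, it held more genes with a small p-value than other stretches of its length. Differences between those groups are therefore given below as a description, and no support is drawn from their p-values.

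RNA came from livers of untreated, chow-fed mice that were 12 weeks old, on a C57BL/6 background. The knockout mice (AEG-1DHEP) lacked AEG-1, the product of Mtdh on chromosome 15, in hepatocytes, and the controls carried the conditional allele (AEG-1fl/fl); the sample titles call them WT. The source of the recombinase is not given in the sources used here, and other liver cells of the knockout mice keep the gene. There were 3 libraries per group, but the columns of control replicates 1 and 2 held identical values in all rows. With no difference between them, below any sampling noise, these columns entered as 1 sample, so 3 knockout libraries are compared with 2 distinct control libraries, replicates 1 and 3.

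Library totals ran from 29557477 to 33685670 counts, and the members took 0.618% to 0.771% of them. Mtdh itself had 89, 74 and 76 counts in the knockout libraries and 1529 and 1612 in the controls. The summed level of 10 hepatocyte markers was 82739 to 112060 CPM (counts scaled to a common library size), and that of each of the other 8 marker lists overlapped between the groups. All 8 sinusoidal endothelial and all 8 stellate cell markers had fold changes below 0, with summed levels of 164 to 231 against 223 to 269 CPM and 180 to 260 against 244 to 259 CPM (knockout against control). Fold changes were also below 0 for 7 of 8 macrophage markers and for all 5 tested erythroid markers, which summed to 424 to 543 against 503 to 674 CPM. They were above 0 for 1 of 5 tested T, B and NK cell markers and 2 of 6 tested cholangiocyte markers. The same held for 5 of 10 hepatocyte markers and the 1 tested skeletal muscle marker. Adipocyte markers summed to 23.9, 31.8 and 11.4 CPM in knockout and 12.3 and 14.0 CPM in control libraries, and 3 of 4 tested had fold changes above 0. Skeletal muscle markers summed to 36.0 CPM in knockout replicate 1 and to 0.659 to 1.19 CPM elsewhere. The part of other cells in the values below was not tested, and in whole liver fewer cells of a type and less RNA per cell cannot be told apart.

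A block of neighbouring genes is not a pathway. This block is gene-dense and corresponds in large part to a stretch of the short arm of human chromosome 3 that is often lost in tumours, where Rassf1, Tusc2, Nprl2, Hyal1, Hyal2, Sema3b and Sema3f are known as candidate tumour suppressors. It also holds genes with a plain role in the liver: Slc38a3, a glutamine transporter of hepatocytes, Gpx1, the selenium-containing glutathione peroxidase, and Mst1, a growth factor that hepatocytes secrete into the blood. Genes that lie side by side can share promoters, overlap on opposite strands, and stay together when a chromosome segment is inherited.

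Of the 121 members, 98 are protein-coding, 7 are antisense transcripts, 6 are processed pseudogenes (2 of them transcribed) and the others are further noncoding or unclassified rows; 75 lie on the plus and 46 on the minus strand. Their spans cover 47.3% of the interval, and the widest gap between neighbours, 708 kb, lies between Plxnb1 and the pseudogene 3000002C10Rik. Exons of 38 members overlap exons of a gene on the opposite strand, and since the strand setting of the counting is not given, reads of such pairs cannot be told apart. The filter on low counts kept 103 members for the test across all genes, and the other 18 are described by their counts only.

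Promoter sequences are shown for Col6a5 and Nudt16, coding genes that were lower in every knockout library and whose upstream window holds no exon of the count table. RefSeq has a promoter entry for 91 members. Each run gives the 250 bases before the annotated start on the minus strand of GRCm38.p6, 5′ to 3′, at chr9:105960644-105960893 for Col6a5 and chr9:105131806-105132055 for Nudt16. Capitals mark 3 motifs, searched on both strands. The GC box was searched as GGGCGG. The second motif was the box named for its letters, CCAAT. The TATA box was searched as TATAAA. None of these letter strings contains another.
Col6a5: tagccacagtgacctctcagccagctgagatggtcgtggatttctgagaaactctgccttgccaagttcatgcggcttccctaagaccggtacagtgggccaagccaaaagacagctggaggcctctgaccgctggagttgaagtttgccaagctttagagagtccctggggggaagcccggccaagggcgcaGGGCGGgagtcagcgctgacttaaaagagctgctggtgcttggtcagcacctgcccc
Nudt16: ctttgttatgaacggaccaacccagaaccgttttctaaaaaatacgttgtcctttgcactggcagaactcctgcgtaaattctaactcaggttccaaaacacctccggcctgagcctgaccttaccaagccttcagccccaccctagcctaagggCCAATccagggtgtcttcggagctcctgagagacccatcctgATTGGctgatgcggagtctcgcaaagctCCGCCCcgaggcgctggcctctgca
Col6a5 has 1 GC box and neither of the other motifs in this window, and Nudt16 has 1 GC box and 2 CCAAT boxes. Over the first listed promoter of each gene, a GC box was present in 57.1% of the 91 members and in 32.9% of all 27025 promoters of this length. A CCAAT box was present in 45.1% against 34.5%, and a TATA box in 4.40% against 13.0%. The median number of CG dinucleotides was 13 for members and 6 for all promoters. The sets are unlike: members had to reach the count minimum in these livers, and the promoters of all genes were taken whether expressed or not. How much of the differences comes from this was not tested. These are letter matches, not measured binding, and they were not set against the expression values.

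Compared with control livers, no member passed the edgeR quasi-likelihood test with Benjamini-Hochberg adjustment over all 16441 genes tested. Over all genes, 0% were called higher and 0.00608% lower, a single gene, Mtdh. The smallest adjusted p of a member was 0.227, for A930036K24Rik. At an unadjusted p under 0.01 there were 7 members, 6.80% of those tested, beside 0.541% of all genes. The interval was chosen by that count: of 535 stretches of 5 Mb with tested genes, none but this one held more than 2 such genes. It also holds many tested genes, 105 with Alas1 and Rpl29, and only 14 of the 535 stretches hold at least 100. The share was not compared between stretches. The count of 7 dropped to 4 when knockout replicate 1 was left out and to 3 when control replicate 3 was. At an unadjusted p under 0.05 there were 14 members, beside 3.43% of all genes. DESeq2, run as an alternative, called 2 members, A930036K24Rik and Col6a5, beside 0.0815% of all genes.

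The members did not move in 1 direction. Of the 103 tested, 52 had a fold change above 0 and 51 below 0, with a median log2 fold change of 0.01, the same as over all genes (0.01). The sizes were spread more widely: the median absolute log2 fold change was 0.22 for members and 0.13 for all genes. It was above 1 in 5 members, beside 1.89% of all genes: A930036K24Rik, Col6a5, Gm17040, 4930524O07Rik and Sema3b. The knockout libraries lay above both controls in 18 tested members and below both in 11, beside 8.16% and 8.72% of all genes. Either pattern held for 28.2% of members and 16.9% of all genes, and for 34.6% and 22.5% of the tested genes in the 5 Mb before and after the interval.

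The smallest p of a member was that of A930036K24Rik (ENSMUSG00000102375, chr9:107680082-107681281, plus strand), a transcript with 1 exon in the GENCODE class TEC. Its level was 3.06, 2.50 and 2.28 CPM in knockout and 16.3 and 10.7 CPM in control libraries, from 94, 83 and 73 against 519 and 317 counts. All knockout libraries were low and close together, and the groups did not overlap. The means were 2.62 ± 0.401 (SD, n = 3) and 13.5 ± 3.93 CPM (SD, n = 2), 5.17-fold higher in control, and the log2 fold change was -2.37 (SE 0.23). DESeq2 gave an adjusted p of 5.39e-13 and called it without each library in turn. It starts 370 bases from the start of Gnat1, which runs the other way, and ends 219 bases from the end of Sema3f. Neither neighbour showed the pattern, with log2 fold changes of -0.13 (SE 0.44) for Gnat1 and -0.33 (SE 0.21) for Sema3f.

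Col6a5 (ENSMUSG00000091345, chr9:105856070-105960643, minus strand), which encodes a chain of collagen VI, a filament-forming collagen of the extracellular matrix, was the other DESeq2 call. Its counts were 12, 13 and 7 in knockout and 48 and 104 in control libraries, or 0.391, 0.392 and 0.219 against 1.51 and 3.52 CPM. The control libraries lay apart from each other, but every knockout library was below both. The log2 fold change was -2.90 (SE 0.46), the DESeq2 adjusted p was 0.00166, and DESeq2 did not call it without knockout replicate 2 or without control replicate 3. Col6a6, the neighbouring collagen VI gene, had 0.651, 0.422 and 0.906 CPM in knockout and 0.973 and 0.644 CPM in control libraries, which overlap. Col7a1, the collagen of anchoring fibrils and also a member, had 0.456, 0.573 and 0.594 CPM against 0.754 and 1.08 CPM. Summed stellate cell markers overlapped between the groups, but all 8 had fold changes below 0, as Col6a5 did. The part of these cells in its value was not tested.

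Nudt16, a Nudix hydrolase that removes caps from small nucleolar RNA, was the third member with a lower level and a small p. Its levels were 9.02, 7.63 and 9.03 CPM in knockout and 14.1 and 11.4 CPM in control libraries. The groups did not overlap, and the log2 fold change was -0.58 (SE 0.16).

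Rad54l2 and Ifrd2 were higher in the knockout livers. Rad54l2, a helicase-like chromatin protein that binds the androgen receptor, had 59.7, 45.2 and 57.2 CPM in knockout and 32.8 and 31.4 CPM in control libraries. Both controls were alike and below every knockout library, with a log2 fold change of 0.75 (SE 0.15). Ifrd2, a ribosome-binding protein, had 36.4, 36.8 and 37.0 CPM against 26.8 and 24.5 CPM. Its knockout libraries were nearly equal, and the log2 fold change was 0.52 (SE 0.10).

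The remaining members with a p under 0.01 had few counts. Gm17040, a transcribed pseudogene, had 15, 15 and 35 counts in knockout and 5 and 1 in control libraries, with a log2 fold change of 2.75 (SE 0.73). Its log2 fold change was 4.17 without control replicate 1 and 2.09 without control replicate 3. It shares 22.7% of its exon length with Cish on the opposite strand, and as a pseudogene it may share reads with its parent gene. The antisense transcript 4930524O07Rik had 24, 15 and 16 counts against 7 and 3, with a log2 fold change of 1.80 (SE 0.50). It shares 45.8% of its exon length with Dock3 and 7.03% with Manf, both on the opposite strand. For these, the groups did not overlap, and their counting is uncertain.

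**Figure D1:**
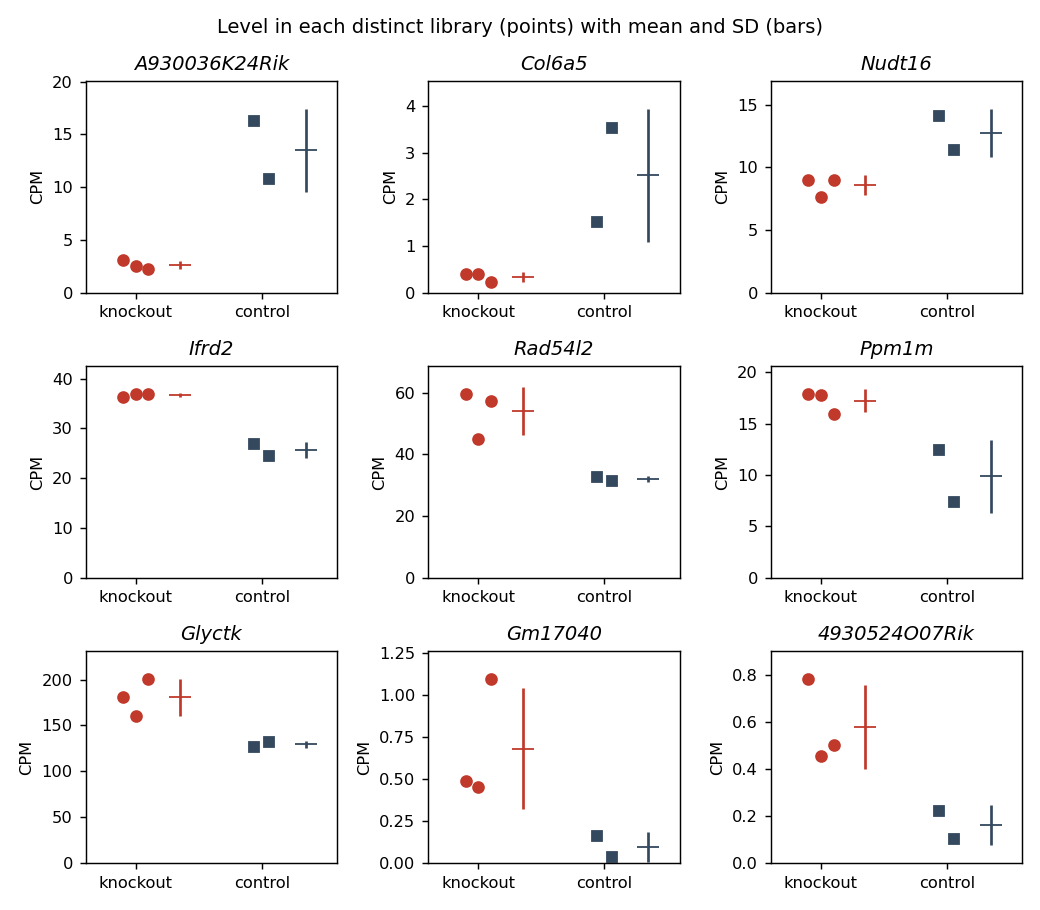
Level in CPM (y axes, starting at 0) of the 7 members with an unadjusted p under 0.01, of Ppm1m and of Glyctk in each distinct library; circles are the 3 knockout libraries, squares the 2 controls, and bars the mean and SD. In each panel the groups do not overlap, with 3.06, 2.50 and 2.28 against 16.3 and 10.7 CPM for A930036K24Rik.

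Ppm1m and Glyctk stood just outside that p mark and were chosen by the rule for named genes. Ppm1m, a phosphatase of the PP2C family, had 17.9, 17.8 and 15.9 CPM in knockout and 12.4 and 7.35 CPM in control libraries (log2 fold change 0.80, SE 0.23). Glyctk, the glycerate kinase of fructose and serine breakdown, had 181, 160 and 201 CPM against 127 and 132 CPM (log2 fold change 0.48, SE 0.14). It is the most abundant of these genes, and 52.1% of its exon length is shared with the antisense transcript D030055H07Rik.

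By position, the 7 members with a p under 0.01 started between 105128903 and 107680082, a span of 2.55 Mb that holds 47 tested members. The 54 tested members beyond it had p-values of at least 0.0308. By start, there were 2 of 9 tested members from 105 Mb, 2 of 19 from 106 Mb and 3 of 29 from 107 Mb, and 0 of 35 and 0 of 11 from 108 and 109 Mb. The median absolute log2 fold change was 0.14, 0.36, 0.31, 0.15 and 0.17 in the same order. Members without exon overlap on the opposite strand held 5 of the 7, among 68 tested. In the 5 Mb before and after the interval, 0 of 26 and 0 of 40 tested genes had such a p, with median absolute log2 fold changes of 0.15 and 0.18. An unadjusted edgeR p under 0.05 was found for 1 gene before (3.85%) and 7 genes after it (17.5%), beside 13.6% of tested members.

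**Figure D2:**
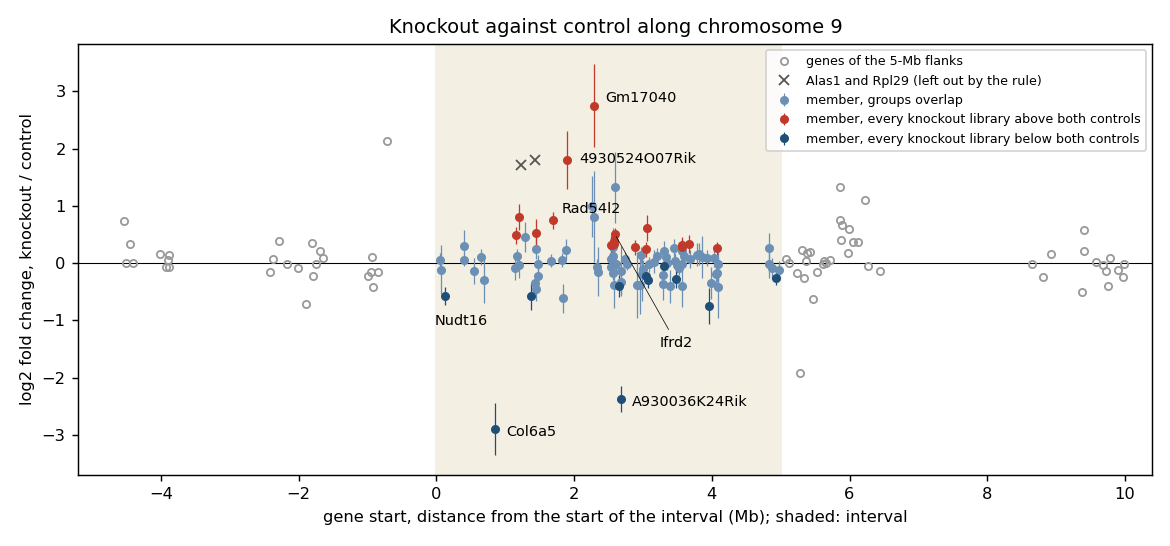
Log2 fold change of knockout over control (y axis, bars are standard errors) against the start of each tested gene, as distance in Mb from the start of the shaded interval; filled points are the 103 tested members, open circles genes of the flanks, and crosses Alas1 and Rpl29. The labelled members with a p under 0.01 lie in the first 2.68 Mb of the interval, and A930036K24Rik and Col6a5 are lowest at -2.37 and -2.90.

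At the edges, the first members were Mrpl3, a mitochondrial ribosomal protein, and Gm38077, of the class TEC. The last were Map4, a microtubule-associated protein, and the pseudogene Gm4734. Mrpl3 had 22.3, 22.3 and 26.5 CPM in knockout and 23.3 and 22.1 CPM in control libraries, and Gm4734 had 7.29, 7.66 and 8.41 against 9.42 and 7.59 CPM. Map4 was at 42.8, 49.7 and 39.8 against 54.8 and 50.5 CPM. Gm38077 ranged from 0.875 to 2.54 CPM. Just before the interval, Acpp, an acid phosphatase, had 290, 436 and 391 counts in knockout and 163 and 3 in control libraries, with control replicate 3 far below the other libraries. Just after it, Dhx30, a mitochondrial RNA helicase, had 31.7, 29.3 and 31.4 CPM against 27.0 and 31.7 CPM. At the count minimum, Gm19667 and Gm37436 had exactly 10 counts over the 6 columns, and Ccdc36, with 9, was the nearest row below.

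Among the genes left out by name, Alas1, the first enzyme of haem synthesis, had 713, 235 and 1218 CPM in knockout and 171 and 270 CPM in control libraries, which overlap. Rpl29, of the large ribosomal subunit, had 176, 214 and 256 counts in knockout and 116 and 5 in control libraries. Control replicate 3 was far below every other library, as it was for Acpp just outside the interval.

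Levels are compared between genes per kilobase of exon. Gpx1 was the most abundant, with a mean of 655 CPM per kilobase, followed by Slc38a3 with 525. Next came Mst1 with 71.7, Abhd14b with 55.0, Uqcrc1 with 54.8 and Glyctk with 36.6, and then Gnat1 with 21.4, Tex264 with 20.4, Gnai2 with 19.1 and Amt with 17.5. The median over tested members was 4.44, and over all tested genes 3.03, all in CPM per kilobase.

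Slc38a3 alone made up 34.9% to 48.3% of the members' summed CPM. It had 2584, 2151 and 2420 CPM in knockout and 3604 and 2703 CPM in control libraries. Every knockout library was below both controls, the nearest by a small margin, and the log2 fold change was -0.40 (SE 0.19). The summed CPM of all members was 6166 to 6509 in knockout and 7457 and 6512 in control libraries. Without Slc38a3 it was 3875, 4015 and 4088 against 3853 and 3809, so the sums change their order when this gene is removed. Gpx1 had 895, 949 and 1086 CPM in knockout and 845 and 977 CPM in control libraries, which overlap (log2 fold change 0.10, SE 0.16).

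**Figure D3:**
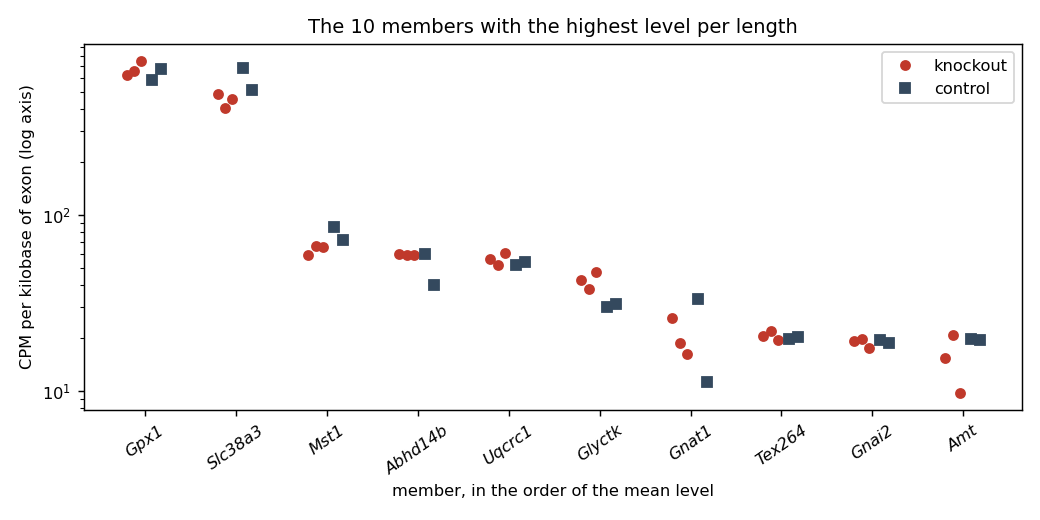
CPM per kilobase of exon (log axis) of the 10 members with the highest mean level, in that order; circles are knockout and squares control libraries. Gpx1 and Slc38a3, with means of 655 and 525, lie well above the rest, and the groups of Gnat1 overlap widely.

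Of 20 metabolic enzymes listed, 18 were members and 17 were tested: 9 had a fold change above 0 and 8 below, with a median of 0.10 and 0 past the edgeR threshold. This list and the others by role were drawn up with the interval's genes in view. Groups did not overlap in 5 of the 17 tested enzymes, or 29.4%, beside 28.2% of all tested members and 16.9% of all genes. Glyctk, Abhd14a, Cyb561d2 and Hyal1 lay above the controls and Gmppb below. Gmppb shares 33.6% of its exon length with Rnf123 on the opposite strand. Abhd14a and Abhd14b are hydrolase genes whose starts lie 110 bases apart on opposite strands. Abhd14a had 7.36, 8.42 and 6.75 CPM in knockout and 6.41 and 3.96 CPM in control libraries, and Abhd14b 110, 109 and 107 against 110 and 73.3 CPM. Both were lowest in control replicate 3. Hyal1, a lysosomal hyaluronidase, had 31.2, 41.1 and 33.9 CPM against 27.6 and 28.9 CPM, but 50.8% of its exon length is shared with Naa80 on the same strand. Hyal2, the membrane-anchored hyaluronidase, overlapped between groups, with 41.5, 48.7 and 39.7 against 47.5 and 49.6 CPM. Amt, of the glycine cleavage system, varied among the knockout libraries (37.6, 50.8 and 23.7 CPM) and hardly between the controls (48.3 and 47.4 CPM).

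Mitochondrial proteins had 9 tested members of 11 listed, 7 of them above 0 and 2 below, with a median log2 fold change of 0.10 and 0 past the threshold. Uqcrc1, a core subunit of respiratory complex III, had 232, 216 and 254 CPM in knockout and 215 and 225 CPM in control libraries. Slc25a20, the carrier that brings acylcarnitines into mitochondria for fatty acid oxidation, had 95.0, 94.8 and 84.7 against 61.5 and 83.8 CPM. Its lowest knockout and highest control libraries nearly met. Ndufaf3, an assembly factor of complex I, had 353, 354 and 320 counts against 269 and 258, and no overlap in CPM either (log2 fold change 0.32, SE 0.13).

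All 8 listed transporters and channels were members, and 7 were tested, 5 above 0 and 2 below (median 0.11, 0 past the threshold). Besides Slc38a3 and Slc25a20, Cyb561d2, an electron-transferring membrane protein, had 7.33, 7.97 and 7.12 CPM in knockout and 5.81 and 6.13 CPM in control libraries. Its start lies 33 bases from that of Nprl2, a subunit of the GATOR1 complex that restrains mTORC1, which had 11.2, 13.8 and 13.4 against 12.2 and 12.3 CPM. The groups thus lay apart for Cyb561d2 and overlapped for Nprl2; the difference between the genes was not tested. Slc26a6, an anion exchanger, ranged from 1.95 to 4.07 CPM among knockout libraries.

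Secreted, matrix and adhesion proteins had 11 tested members of 17 listed, 4 above 0 and 7 below, with a median of -0.30 and 0 past the threshold. Mst1, the ligand of the receptor Mst1r, had 134, 152 and 149 CPM in knockout and 194 and 164 CPM in control libraries. All knockout libraries lay below both controls (log2 fold change -0.30, SE 0.14), and 8.62% of its exon length is shared with Rnf123 on the opposite strand. Mst1r had only 5, 19 and 10 counts against 10 and 18. Manf, a secreted protein induced by endoplasmic reticulum stress, had 32.5, 51.0 and 28.4 CPM against 64.1 and 50.3 CPM, which overlap through knockout replicate 2. Sema3b, a secreted guidance protein, had 2.12, 3.71 and 0.781 CPM against 0.942 and 0.813 CPM. Its log2 fold change of 1.32 (SE 0.62) rests on knockout replicates 1 and 2, since replicate 3 was below the controls. Dag1, the dystroglycan that ties cells to laminin, had 115, 110 and 87.0 against 93.6 and 97.8 CPM.

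Receptors and signalling proteins had 19 tested members of 25 listed, 10 above 0 and 9 below (median 0.06, 0 past the threshold). Rhoa and Gnai2, a small and a heterotrimeric GTPase, varied little between libraries. Gnai2 had 73.0, 75.4 and 66.3 CPM in knockout and 74.3 and 71.2 CPM in control libraries. Rhoa had 79.9, 81.6 and 79.3 against 84.5 and 82.5 CPM. Cish, a feedback inhibitor that STAT5 induces after growth hormone, had 3.52, 35.7 and 17.7 CPM in knockout and 9.33 and 12.4 CPM in control libraries. Its 10.2-fold range among the knockout libraries was the widest of all members with at least 2 CPM, and the controls lay inside it. Mapkapk3, a kinase downstream of p38, had 3.58, 7.45 and 5.28 against 4.21 and 1.25 CPM. Among the candidate tumour suppressors, Rassf1 had 3.19, 3.83 and 3.47 against 3.01 and 2.61 CPM, without overlap. Tusc2 had 23.5, 23.7 and 25.8 against 20.8 and 23.98 CPM, which overlap. Rassf1 shares 42.7% and Tusc2 27.1% of its exon length with the antisense transcript Gm9917.

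Proteins of RNA binding and translation had 11 tested members of 14 listed, 6 above 0 and 5 below (median 0.08, 0 past the threshold), with Ifrd2 furthest from 0. Dalrd3 had 30.2, 34.5 and 32.8 CPM in knockout and 34.3 and 31.3 CPM in control libraries, while its overlapping neighbour Wdr6 had 19.2, 22.9 and 20.7 against 16.9 and 17.4 CPM. The list for DNA repair, chromatin and cell division had 10 tested members of 18, 5 above 0 and 5 below (median -0.02, 0 past the threshold). Of these 10, Qrich1 and Ccdc51, a mitochondrial membrane protein, have known roles other than the list's name says, so its count and median describe a mixed set. Parp3, a repair enzyme, had 36.1, 47.8 and 32.3 against 43.5 and 47.5 CPM. Aste1 had 3.94, 2.84 and 5.16 against 3.49 and 2.98 CPM, and Ccdc51 had 8.56, 9.35 and 9.37 against 11.3 and 9.18 CPM. Ubiquitin and protein turnover had 9 tested members of 14, 6 above 0 and 3 below (median 0.05, 0 past the threshold). Tex264, a receptor for autophagy of the endoplasmic reticulum, had 59.2, 63.0 and 56.5 against 56.7 and 58.8 CPM. Apeh had 71.0, 75.0 and 79.0 against 82.7 and 69.5 CPM, and Rnf123, a ubiquitin ligase, 77.7, 86.5 and 70.7 against 63.0 and 69.1 CPM. Rnf123 was furthest from 0 in this list, at 0.25 (SE 0.13), with every knockout library above both controls, and Nicn1 was at -0.21. Rnf123 shares 13.9% of its exon length with Gmppb on the opposite strand.

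**Figure D4:**
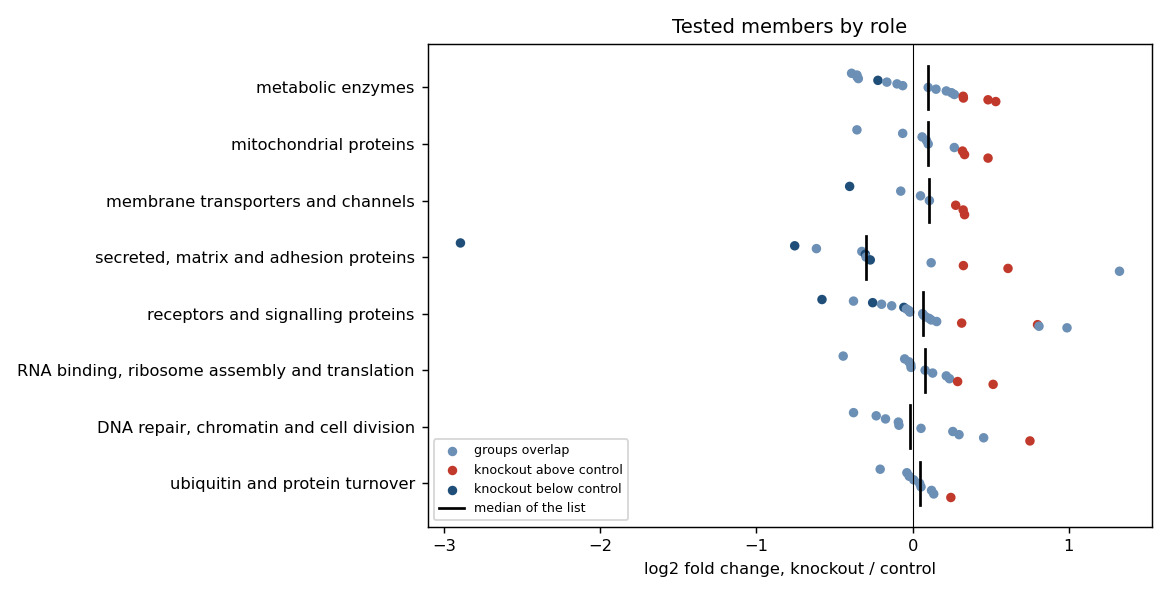
Log2 fold change of knockout over control for each tested member of the 8 role lists; colours show whether the knockout libraries lie above, below or among the controls, and black lines are list medians. The medians lie between -0.30 for secreted, matrix and adhesion proteins and 0.11 for transporters, and single members lie far from them.

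The spread within each group enters the p-values by which the interval was chosen, so it is given as a description. The median range over the 3 knockout libraries was 0.28 on a log2 scale for tested members and 0.31 for all tested genes. The median difference between the 2 controls was 0.19 for members and 0.20 for all genes. A range over 3 libraries is larger by construction than a difference of 2, so these values are compared only across genes; the knockout range was the wider one in 64 of 103 members. Gnat1, the alpha subunit of rod transducin, differed most between the controls among tested members, with 102 and 34.0 CPM, and its knockout libraries had 79.3, 57.0 and 49.5 CPM. Plxnb1, a semaphorin receptor, likewise had 111 and 45.5 CPM in the controls and 72.4, 82.8 and 76.9 CPM in the knockout libraries. For both genes the knockout libraries lay between the controls.

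**Figure D5:**
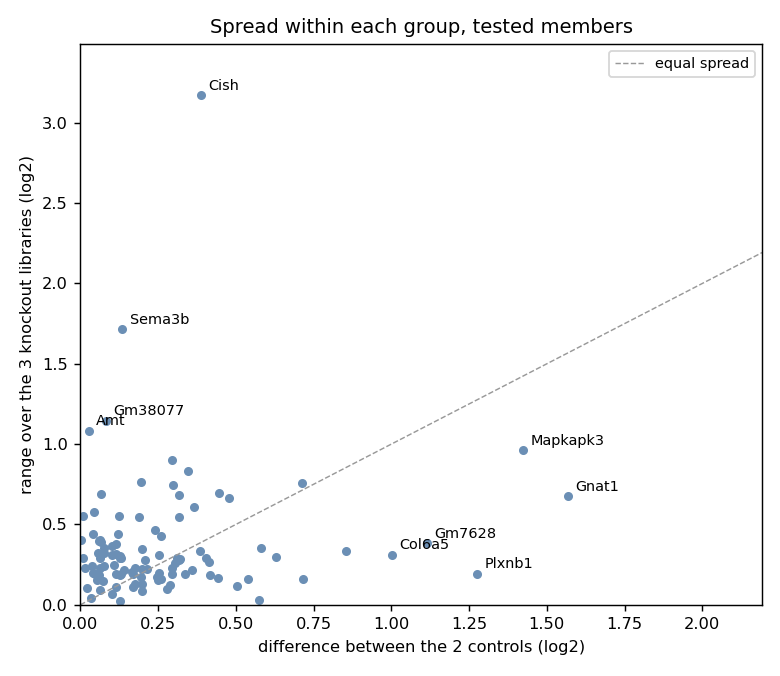
Range of log2(CPM + 0.5) over the 3 knockout libraries (y axis) against the difference between the 2 controls (x axis) for the 103 tested members; the dashed line marks equal values. Cish has the widest knockout range at 3.17, and Gnat1 and Mapkapk3 differ most between the controls, by 1.57 and 1.42.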

How the data were processed

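The authors deposited raw read counts in 1 table of 46983 genes by 6 libraries; per the file headers, each row also gives exon coordinates, strand and summed exon length, the other deposited values used. Tools listed in the submitters' processing notes are featureCounts 1.4.6-p4, Subread 1.4.6-p4, Trimmomatic 0.33 and FastQC, and the builds are mm10 and GRCm38, names of the same assembly. The sources used here do not give the strand setting, the handling of multiple matches or the annotation release. The titles call the libraries biological replicates and do not say more, so p-values measure the spread between these libraries. Symbols came from GENCODE vM21 for 120 of 121 members; 113 had the same span there.

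Genes were kept by edgeR's filterByExpr and scaled with TMM factors. Counts of the 3 knockout and 2 distinct control libraries were compared with the edgeR quasi-likelihood F test, two-sided, unblocked, Benjamini-Hochberg adjusted over 16441 genes (threshold 0.05). Standard errors come from the F statistic. A count of 3 equals 0.0891 to 0.102 CPM, counting error only. Software was DESeq2 1.42.0, limma 3.58.1 and edgeR 4.0.16 under R 4.3.3, with Python 3.11.15; the edgeR step was tested on simulated data.

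The members and lists were chosen with earlier results of these data known. The naming rule took members with an unadjusted p under 0.01 or a DESeq2 call (up to 15), the 10 highest levels per length, 3 per role list, the 5 widest knockout ranges at 2 CPM or more, and the edges. It named 34; other members named in the text were chosen after their values were seen.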

Additional observations from a re-analysis of the deposited data

How the results depend on the processing

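With 2 distinct controls, leaving out either one leaves a single control library whose spread is assumed to be that of the other group. The number of members past the edgeR threshold was 0 in both directions in all alternatives fitted with edgeR or limma-voom, except 1 lower member, A930036K24Rik, without a low-count filter; DESeq2 called 2 lower members. Leaving out 1 library at a time, the number with an unadjusted p under 0.01 ranged from 3 to 8, the median log2 fold change of tested members from -0.0107 to 0.0454, and the DESeq2 calls, an alternative chosen after seeing the data, from 1 to 3. Over all 19 settings, the log2 fold change lay between -2.64 and -2.04 for A930036K24Rik and between -3.41 and -2.16 for Col6a5. It lay between 2.09 and 4.31 for Gm17040 and between 1.38 and 2.50 for 4930524O07Rik. All 7 members with a p under 0.01 kept their sign, but this was nearly fixed in advance. Their groups do not overlap, so leaving out a library could hardly reverse them, and no support is drawn from it. With all libraries DESeq2 did not call Rad54l2, Ppm1m or Manf (adjusted p = 0.0505, 0.595 and 1.00); each was called in 1 of the 5 fits only, Rad54l2 and Manf without knockout replicate 2 and Ppm1m without control replicate 1, the library nearest the other group in each case.

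Among the other members named by the rule, 22 refitted fold changes had the opposite sign, all of genes short of the threshold, and the cause was not tested. Leaving out 1 library at a time, the log2 fold change ranged from -0.0272 to 0.103 for Mrpl3 and from -0.403 to 0.228 for Gm38077. It ranged from -0.0091 to 0.563 for Abhd14b and from -0.0312 to 1.30 for Cish. For Gnai2 it ranged from -0.0631 to 0.0276, and for Gnat1 from -0.715 to 0.859. It ranged from -0.139 to 0.105 for Apeh, from -0.0053 to 0.210 for Gpx1, from -0.0726 to 0.0502 for Dalrd3, from -0.303 to 0.297 for Slc26a6 and from -0.272 to 0.0328 for Gm4734. Dalrd3 was at 0.0014 with library totals alone, and Gnat1 at 0.0454 with limma-voom.

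The replicate numbers are shared by the groups, but nothing says that they pair mice. Deviations of same-numbered libraries correlated by 0.0254 (number 1) and 0.141 (number 3) across genes. Knockout replicate 2 correlated by 0.124 with control replicate 1 and by -0.124 with control replicate 3, whose numbers differ from its own. The deviations of 2 controls from their mean mirror each other, so these correlations cannot decide whether the numbers pair mice. With the replicate number as a block, 5 members had a p under 0.01, 0 passed the threshold, and the median was 0.00044. Among the distinct libraries, number 2 occurs only in knockout replicate 2, so that library drops out of this comparison. Gm38077 (0.227), Cish (-0.385), Gnat1 (0.0859) and Slc26a6 (-0.297) changed sign. Without a block, leaving out knockout replicate 2 also changed the sign of Gm38077 (0.228), Cish (-0.0312) and Slc26a6 (-0.303). Gnat1 kept its sign there (-0.0778).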
